A study of Mus musculus with 14 samples.

Results

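The triceps of sedentary FLExDUX4 mice was compared with the triceps of wild-type (WT) mice that had run. FLExDUX4 mice carry a human DUX4 transgene that can be switched on by Cre recombinase, and are used to model facioscapulohumeral muscular dystrophy. The comparison covered 7 of the 14 mice of the series, chosen by their labels alone: 3 FLExDUX4 males without running and 4 WT littermate males with 6 weeks of voluntary wheel running. The other groups, 3 WT controls without running and 4 FLExDUX4 runners, were used to place these levels. The labels name no Cre driver and no age. The groups compared differ in genotype and in running, and within this contrast the parts of each cannot be told apart. The comparison asks which features of trained WT muscle are present in, or missing from, untrained muscle of the model.

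DUX4 is a transcription factor of early embryos, and its return in skeletal muscle is toxic to the fibres. Endurance running is known to move fast glycolytic fibres towards more oxidative types, with more mitochondria, fatty acid oxidation, myoglobin and capillaries. Each adult fibre type is marked by its myosin heavy chain: Myh7 in slow type I, Myh2 in IIa, Myh1 in IIx and Myh4 in the fast glycolytic IIb fibres that fill most of a mouse triceps.

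Libraries were made from the 3′ end of mRNA, so that a transcript's counts do not scale with its length. Gene counts per library ran from 3949656 to 6995811 in FLExDUX4 controls and from 4721606 to 6092676 in WT runners. Levels are given as CPM, read counts scaled to library size with TMM factors, mouse by mouse in the order of the sample records, and differences as log2 of FLExDUX4 controls over WT runners with the standard error of the fit. FLExDUX4 control 1 stood apart from the other libraries on the second principal component, at 29.2 where the other 13 lay between -7.51 and 3.22. Skeletal muscle markers were present throughout, with a summed level of 78260 to 99350 CPM in FLExDUX4 controls and 70070 to 90570 CPM in WT runners. The table held 0 rows for DUX4, so the transgene itself could not be checked.

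No gene passed the test. Of 11088 genes, 0 (0%) had an adjusted p under 0.05 in edgeR's quasi-likelihood test, and the smallest adjusted p was 0.344. At an unadjusted p under 0.05 there were 807 genes (7.28%), with 350 (3.16%) higher in FLExDUX4 controls and 457 (4.12%) lower, where a p under 0.05 is met by 554.4 genes by chance. DESeq2 called 1 gene, Egln3, and limma-voom called 0. Without the filter on low counts edgeR called 47 genes, 20 higher and 27 lower. The authors' deposited table called 23 genes, 16 higher and 7 lower, out of 3021 with an adjusted p. Among them were Atp5g1, Nrep, Kcnc4, Mylk2, Ndufb10, Ndufa1, Sod2 and Nr1d2, each at an adjusted p of 0.0348 in the authors' comparison. Timp3 was also called there, at 0.0367, as were Tef and Palld, at 0.0348, both named here after their values were seen. A missed threshold with 3 and 4 mice does not show that the groups were alike, so the levels and intervals below are a description. FLExDUX4 controls against WT controls, used below only to place levels, also gave 0 called genes (0%) in edgeR. In that contrast 554 genes (5%) had an unadjusted p under 0.05, where chance gives 554.4. Places above or below WT controls are therefore a description too.

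**Figure D1:**
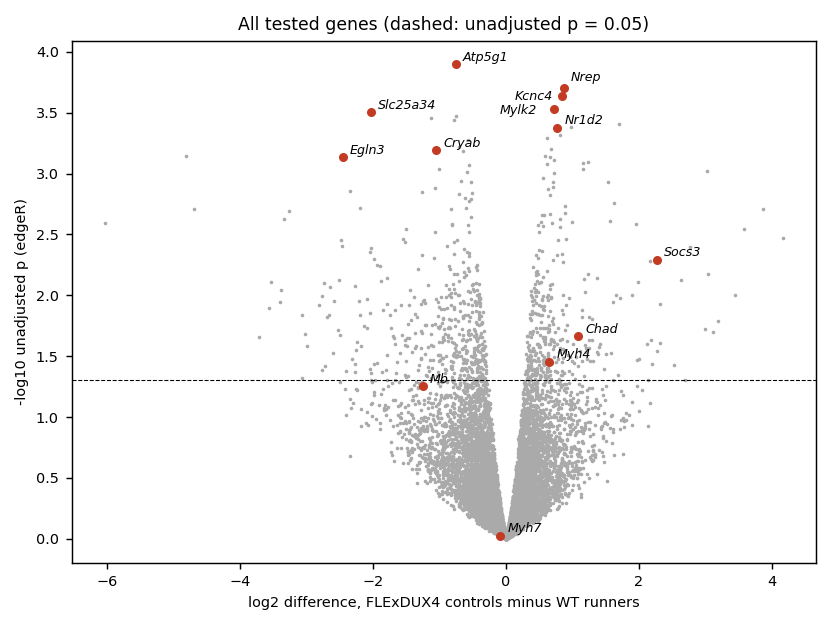
Each point is 1 of the 11088 tested genes, by its log2 difference (FLExDUX4 controls minus WT runners) and the -log10 of its unadjusted edgeR p. Named genes are in red; Atp5g1 lies highest, and no gene passed adjustment.

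The 5 genes with the smallest p in edgeR, all uncalled there at an adjusted p of 0.344, were Atp5g1, Nrep, Kcnc4, Mylk2 and Slc25a34. Atp5g1 (GRCm38 chr11:96068852-96075670) encodes subunit c of the ATP synthase. It was at 156, 196 and 181 CPM in FLExDUX4 controls and at 310, 259, 245 and 388 CPM in WT runners, a log2 difference of -0.76 ± 0.17 (SE; 95% interval -1.11 to -0.40). The groups did not overlap, and WT controls, at 168, 160 and 176 CPM, lay beside the sedentary FLExDUX4 mice. Mylk2 (chr2:152911352-152923068), the skeletal muscle myosin light chain kinase, had the opposite order, with 351, 357 and 424 CPM in FLExDUX4 controls and 211, 225, 232 and 246 CPM in WT runners (0.73 ± 0.18). Kcnc4, a voltage-gated potassium channel, was at 77.6, 43.1 and 50.8 CPM against 40, 22.9, 32.5 and 32 CPM (0.84 ± 0.21), and Nrep at 104, 109 and 171 against 52.8, 48.8, 96.6 and 83 CPM (0.87 ± 0.20). Slc25a34, a mitochondrial carrier, was at 2.19, 3.74 and 2.7 CPM against 18.8, 11, 3.86 and 13.8 CPM (-2.04 ± 0.50). In these 5 genes no FLExDUX4 control reached the range of the WT runners. Over all tested genes, 3.09% were without overlap and higher in FLExDUX4 controls and 3.82% without overlap and lower.

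Fibre type genes placed the sedentary FLExDUX4 mice between WT controls and the more oxidative runners. Myh4 took 95.8, 93.1 and 94.9% of the counts of the 4 adult myosin genes in FLExDUX4 controls. In WT runners it took 70.9, 89.0, 94.9 and 75.8%, so that runners 1 and 4 were well below every FLExDUX4 control and runner 3 was within their range. The means were 94.6% ± 1.37 (SD, n = 3) and 82.7% ± 11.2 (SD, n = 4), with a 2-sided exact permutation p of 0.171 (adjusted p = 0.457 over 4 such measures; the smallest possible p is 0.0571). WT controls averaged 98.6% ± 0.256 (SD, n = 3).

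**Figure D2:**
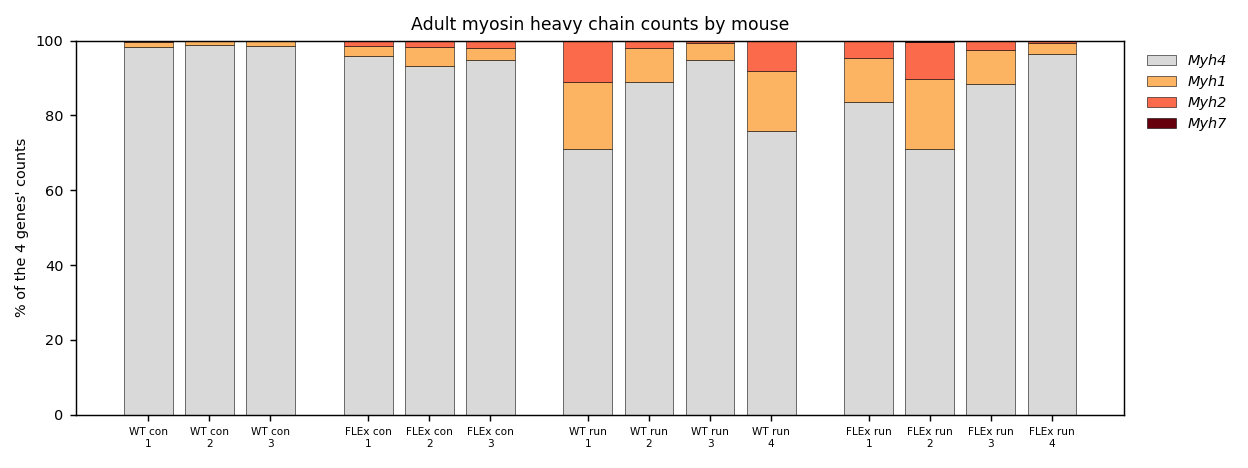
Stacked bars give, for each of the 14 mice, the percent of the summed Myh4, Myh1, Myh2 and Myh7 counts that each gene took. WT runners 1 and 4, at 70.9 and 75.8% Myh4, show the most Myh1 and Myh2 of the groups compared; FLExDUX4 controls lie between 93.1 and 95.8%.

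The IIa and IIx myosins were above WT control levels in every FLExDUX4 control. Neither gene was called against WT controls (edgeR adjusted p = 0.969 for each). Myh2 was at 461, 457 and 593 CPM in them, at 2349, 643, 149 and 1337 CPM in WT runners and at 79.5, 54 and 57.2 CPM in WT controls. Myh1 was at 1049, 1490 and 1078 CPM in FLExDUX4 controls and at 3957, 2840, 1087 and 2648 CPM in WT runners. Against WT runners the differences were -1.15 ± 0.83 for Myh2 and -1.13 ± 0.50 for Myh1, with adjusted p of 0.836 and 0.680. Runner 3 overlapped the FLExDUX4 controls in Myh1 and lay below them in Myh2. Slow Myh7 was scattered, from 4.66 to 36.3 CPM against 0.533 to 40.2 CPM, and its interval of -2.90 to 2.72 leaves even the direction unknown.

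Of 15 slow fibre contractile genes, 14 had a log2 difference below 0, against 51.6% of all tested genes, with a median of -0.41 against -0.01 over all. None was called. The same list had a median of 2.22 in FLExDUX4 controls over WT controls and of 2.94 in WT runners over WT controls. These 2 contrasts share the WT controls, and for each gene the main difference is the first minus the second. They are therefore set side by side only. The list median turned to 0.02 without WT runner 1 and was -0.04 without runner 4, -0.16 without FLExDUX4 control 1 and -1.09 without FLExDUX4 control 3. Casq2, the slow and cardiac calsequestrin, was at 6.31, 9.72 and 7.59 CPM against 35.4, 18.3, 11 and 21.1 CPM (-1.44 ± 0.48, adjusted p = 0.540). Of 16 fast fibre genes 15 were above 0, with a median of 0.26. Casq1, the fast calsequestrin, was at 902, 847 and 925 CPM against 539, 698, 931 and 588 CPM (0.37 ± 0.16).

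The mitochondrial respiratory genes lay lower in FLExDUX4 controls as a block, by a small amount each. All 36 tested complex I subunits, all 23 of complexes III and IV and all 17 of the ATP synthase encoded in the nucleus had a log2 difference below 0, where 51.6% of all genes did. Their medians were -0.31, -0.35 and -0.34. Of these 76 genes 42 had an unadjusted p under 0.05 (background 4.12%) and 30 did not overlap between the groups (background 3.82%). None passed adjustment in edgeR, while the authors' table called Atp5g1, Ndufb10 and Ndufa1. Genes of a complex share regulation and are not independent counts. The joint median ran from -0.26 to -0.40 over the 19 alternatives of processing and left-out mice, and was -0.36 with FLExDUX4 control 1 and WT runner 2 both left out. Against WT controls the median of the 76 genes was 0.12 in FLExDUX4 controls and 0.46 in WT runners.

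Ndufb10 of complex I was at 158, 190 and 172 CPM in FLExDUX4 controls and at 258, 216, 248 and 299 CPM in WT runners (-0.56 ± 0.15, adjusted p = 0.344). Cox7a1, the heart and muscle form of a complex IV subunit, was at 330, 386 and 397 CPM against 558, 473, 446 and 779 CPM (-0.60 ± 0.18), and Uqcrq of complex III at 622, 740 and 614 against 970, 790, 812 and 1306 CPM (-0.56 ± 0.18). Atp5g3, another gene for ATP synthase subunit c, was at 710, 849 and 915 CPM against 1508, 1115, 927 and 1414 CPM (-0.59 ± 0.16). None of these 4 overlapped, although the highest FLExDUX4 control came close to runner 3 in Atp5g3.

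Genes of the mitochondrial genome showed more overlap. Their transcripts took 28.8, 29.2 and 20.5% of gene counts in FLExDUX4 controls and 30.8, 32.7, 27.0 and 36.6% in WT runners, with means of 26.2% ± 4.88 (SD, n = 3) and 31.8% ± 4.01 (SD, n = 4) and an exact permutation p of 0.229, adjusted p = 0.457. Of its 13 protein genes 8 were tested, and all 8 were below 0, with a median of -0.31. Of these, 0 were without overlap, where 3.82% of all genes were lower without overlap. In the tricarboxylic acid cycle and pyruvate entry, 23 of 24 genes were below 0 (median -0.26). Fumarase, Fh1, was at 89.2, 142 and 110 CPM against 154, 147, 155 and 202 CPM (-0.53 ± 0.16). Mitochondrial superoxide dismutase, Sod2, was at 119, 140 and 156 CPM against 228, 185, 169 and 218 CPM (-0.53 ± 0.15). Ppargc1a, the coactivator that drives mitochondrial biogenesis, did not share this order: 55.1, 78.5 and 82.5 CPM against 73, 79, 44 and 66 CPM, a difference of 0.14 with an interval of -0.23 to 0.51.

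The 26 tested genes that take up and oxidise fatty acids had a median log2 difference of -0.46, with 24 below 0 (51.6% of all genes were). Of the 26, 12 were lower at an unadjusted p under 0.05 (background 4.12%) and 3 were lower without overlap (background 3.82%). Slc25a20, the carnitine-acylcarnitine carrier, was at 34, 42.6 and 39.9 CPM in FLExDUX4 controls, 71.8, 56.3, 47.1 and 77.7 CPM in WT runners and 28.8, 27.4 and 33.7 CPM in WT controls (-0.70 ± 0.20, adjusted p = 0.367). Every FLExDUX4 control was above every WT control and below every runner. Cd36, the fatty acid transporter, chosen after its values were seen, was at 63.4, 86.5 and 85.9 CPM against 185, 128, 86.1 and 176 CPM (-0.87 ± 0.32). Ucp3, a mitochondrial uncoupling protein also chosen after its values were seen, overlapped widely: 19.8, 38.4 and 35.1 CPM against 13.5, 55.9, 25.2 and 32.4 CPM (-0.03 ± 0.45). Glycolysis and glycogen genes split evenly, 14 above 0 and 11 below, with a median of 0.03. Gpd1, the cytosolic glycerol phosphate dehydrogenase, was at 214, 185 and 271 CPM against 126, 158, 196 and 155 CPM (0.49 ± 0.17).

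**Figure D3:**
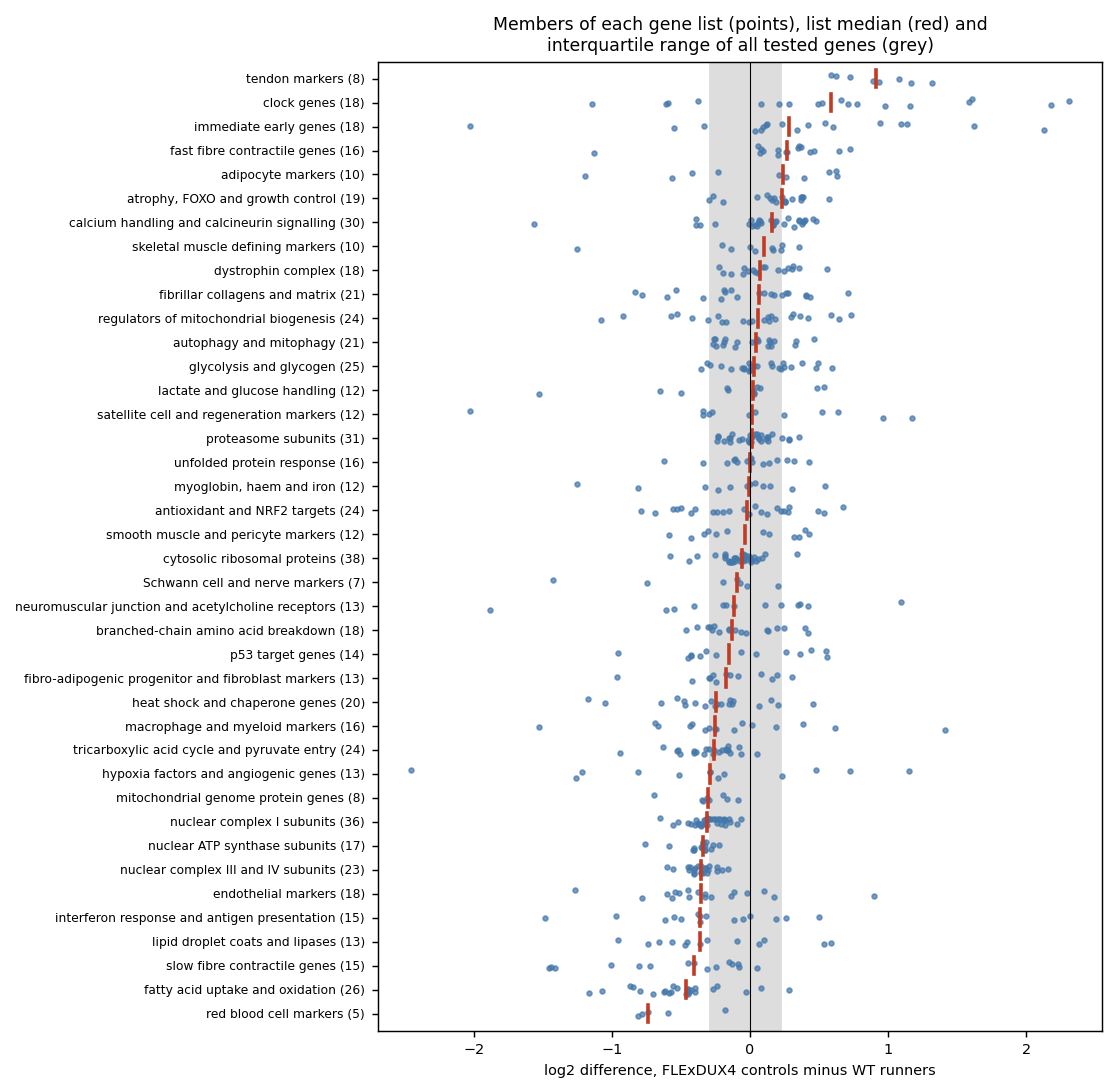
Each point is a tested gene of the list named at the left (number of tested genes in brackets), by its log2 difference; the red line is the list median and the grey band the interquartile range of all tested genes, -0.29 to 0.23. Tendon markers lie highest, at a median of 0.91, and red blood cell markers lowest, at -0.74.

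Egln3 and Mb, genes of oxygen sensing and storage, averaged between WT controls and WT runners in FLExDUX4 controls. Egln3 (chr12:54178981-54203860), a prolyl hydroxylase that marks hypoxia-inducible factors for breakdown, was at 4.66, 6.98 and 9.26 CPM in FLExDUX4 controls and at 73.2, 36.6, 15.8 and 32.7 CPM in WT runners. WT controls were at 2.73, 3.24 and 4.81 CPM. The difference was -2.46 ± 0.54 (interval -3.64 to -1.28), with an adjusted p of 0.344 in edgeR and of 5.43e-05 in DESeq2. Myoglobin, Mb, the oxygen store of oxidative fibres, was at 762, 1387 and 1235 CPM against 3794, 1687, 1173 and 4130 CPM (-1.26 ± 0.58, adjusted p = 0.694). All 3 FLExDUX4 controls were above the 356, 389 and 338 CPM of WT controls, and runner 3 was within their range.

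Chaperone genes lay mostly lower in FLExDUX4 controls than in WT runners. Cryab, a chaperone of the Z-disc, was at 561, 780 and 699 CPM against 1753, 1423, 1052 and 1407 CPM in WT runners (-1.05 ± 0.25, adjusted p = 0.344), with WT controls at 841, 473 and 708 CPM. Hspb1 was at 125, 169 and 179 CPM against 217, 270, 314 and 189 CPM (-0.65 ± 0.17). Neither gene overlapped between the groups compared, and both overlapped WT controls. Hspb7, a related chaperone, chosen after its values were seen, differed from them in that FLExDUX4 controls, at 23.1, 39.4 and 41.9 CPM, lay above the 12.8, 21 and 15.3 CPM of WT controls. It was at 100, 81.9, 50.5 and 83 CPM in WT runners (-1.17 ± 0.37, adjusted p = 0.540). Of 20 chaperone genes 16 were below 0 (median -0.24), and 6 were lower without overlap (3.82% of all genes were). The mean log2 level of the list, relative to WT controls, was -0.336, 0.205 and 0.213 in FLExDUX4 controls. In WT runners it was 0.438, 0.425, 0.313 and 0.337. Without FLExDUX4 control 1 the list median was -0.153. Cdkn1a, the cell cycle inhibitor p21, was at 15.1, 28.2 and 10 CPM against 45.3, 33, 39 and 18.6 CPM (-0.96 ± 0.36, adjusted p = 0.583).

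**Figure D4:**
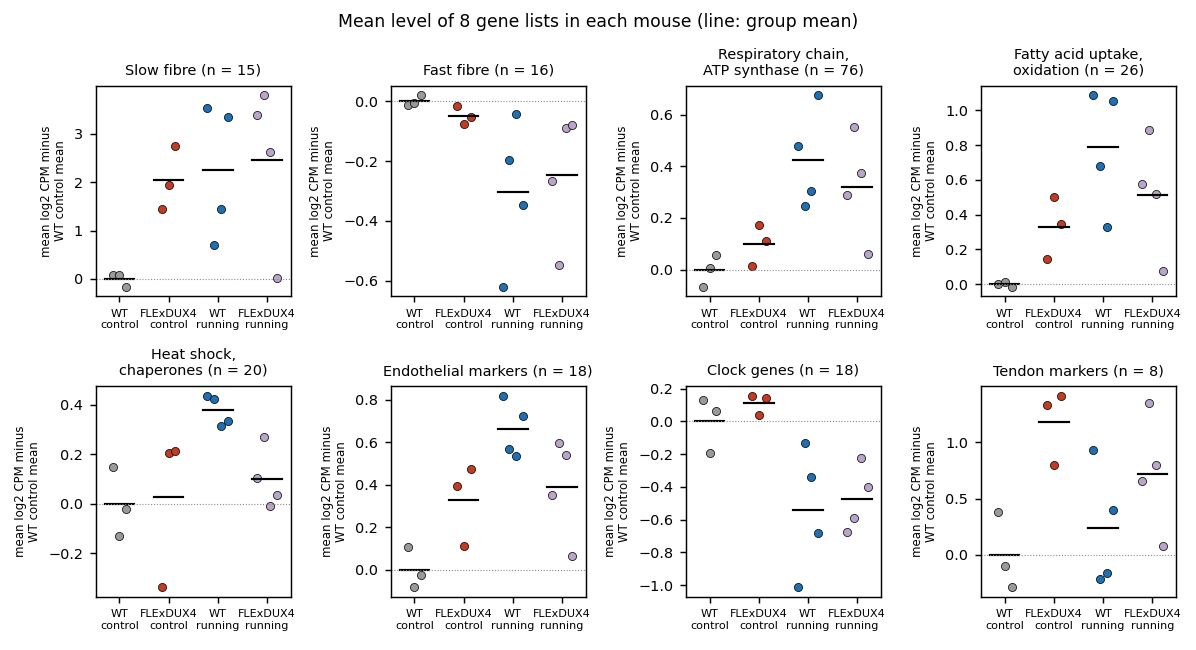
Points are mice and lines group means; the axis is the mean log2 CPM of a list's genes minus the mean of WT controls. For the 76 respiratory genes FLExDUX4 controls lie between 0.02 and 0.17 and WT runners between 0.25 and 0.68, while for slow fibre genes the 3 FLExDUX4 controls, at 1.44 to 2.75, fall inside the runners' range of 0.71 to 3.54.

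Most clock genes lay on the other side, and Arntl, Clock, Cry1 and Nfil3 did not. Of 18 tested, 14 had a log2 difference above 0 (48.4% of all genes did), with a median of 0.59, and the median was 0.01 in FLExDUX4 controls and -0.43 in WT runners against WT controls. Nr1d2 (chr14:18204054-18239127), a repressor of the clock loop, was at 64.2, 41.9 and 67.2 CPM in FLExDUX4 controls and at 23.9, 40.7, 43.2 and 27.8 CPM in WT runners (0.77 ± 0.20, adjusted p = 0.344), with FLExDUX4 control 2 inside the runners' range. Hlf, an output transcription factor, was at 37.6, 12 and 29.2 CPM against 7.12, 16, 16.2 and 7.61 CPM (interval 0.52 to 1.80). Dbp, another output factor, chosen after its values were seen, was at 102, 41.6 and 84.5 CPM against 5.94, 28.4, 34.5 and 32.2 CPM (1.58 ± 0.63). Tef, also chosen after its values were seen, was at 112, 79.5 and 128 CPM against 42.5, 58.6, 91.4 and 69.5 CPM (0.71 ± 0.20). FLExDUX4 control 2 was the lowest of its group in each of these 4 genes. The 4 members below 0 were Arntl, Clock, Cry1 and Nfil3, all named after their values were seen. Arntl, which pairs with Clock to activate the loop, was at 4.12, 16 and 5.92 CPM against 24.7, 16.2, 15.2 and 19.5 CPM (-1.14 ± 0.49, adjusted p = 0.628), with FLExDUX4 control 2 the highest of its group and inside the runners' range. Clock was at 25.2, 30.9 and 16.7 CPM against 37.8, 45.6, 28 and 35.2 CPM (-0.61 ± 0.24, adjusted p = 0.560). Cry1, a repressor, was at 12.1, 13.2 and 12.6 CPM against 28.7, 14.6, 14.8 and 18.4 CPM (-0.60 ± 0.30), without overlap. Nfil3, a repressor of output genes, overlapped (-0.38 ± 0.56). The hour of tissue collection was not given in the sources used here.

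Promoter windows (RefSeq, GRCm38.p6, 250 bases before to 50 after a start) are shown for genes from these opposite-lying groups. Both motifs were picked after the list results were known. The E-box CACGTG, which reads the same on both strands and is bound by the clock activators, was in a window of 12.3% of 8337 tested genes, 33.3% of 15 clock genes and 6.8% of 103 mitochondrial and fatty acid genes. The motif AAGGTCA, bound by oestrogen-related receptors, on either strand, was in 3.81%, 0% and 9.71% of the same sets. Capitals mark the match on the strand of the gene, the E-box in Tef and the receptor motif, here as its reverse complement, in Atp5g3.
Tef, chr15:81802423-81802722, plus strand: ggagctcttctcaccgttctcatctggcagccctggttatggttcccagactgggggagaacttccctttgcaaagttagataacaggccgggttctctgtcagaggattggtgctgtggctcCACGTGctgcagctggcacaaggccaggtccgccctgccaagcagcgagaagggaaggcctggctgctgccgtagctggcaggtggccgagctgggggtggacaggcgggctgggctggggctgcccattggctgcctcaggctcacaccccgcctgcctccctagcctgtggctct
Tef, chr15:81811164-81811463, plus strand: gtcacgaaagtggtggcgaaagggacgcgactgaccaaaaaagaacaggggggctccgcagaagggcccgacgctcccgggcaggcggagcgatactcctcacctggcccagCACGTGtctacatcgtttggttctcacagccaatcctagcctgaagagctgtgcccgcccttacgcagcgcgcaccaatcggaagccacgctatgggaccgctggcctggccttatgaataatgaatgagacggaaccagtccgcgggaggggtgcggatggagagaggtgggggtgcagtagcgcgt
Atp5g3, chr2:73911277-73911576, minus strand: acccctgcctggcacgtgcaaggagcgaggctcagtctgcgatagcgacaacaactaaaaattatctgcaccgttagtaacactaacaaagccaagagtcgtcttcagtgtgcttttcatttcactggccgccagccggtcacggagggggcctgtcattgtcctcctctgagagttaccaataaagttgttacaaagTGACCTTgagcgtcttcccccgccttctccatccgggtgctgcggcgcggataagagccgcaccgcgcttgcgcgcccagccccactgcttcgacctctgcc
The Atp5g3 window also holds a CACGTG, left in lower case, and the windows of Nr1d2, Hlf and Dbp held none. A window of Cry1, a clock gene with a log2 difference below 0, held the E-box too, so the match was not confined to clock genes above 0. A match is a string of letters in a window and not a measured binding site.

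Among markers of other cells, tendon genes lay higher in FLExDUX4 controls. All 8 tested were above 0 (48.4% of all genes were), with a median of 0.91, and of 1.09 against WT controls. Only 1 of the 8 was higher without overlap, where 3.09% of all genes were. The summed level of the 10 markers was 113.5 to 220.0 CPM in FLExDUX4 controls and 61.1 to 159.9 CPM in WT runners, with Mkx at 0 in the former. Chad, a matrix protein of cartilage and tendon, was at 20, 15.2 and 19.4 CPM against 16, 8.88, 2.64 and 6.9 CPM, and at 4.84, 1.3 and 4.21 CPM in WT controls (1.08 ± 0.44, adjusted p = 0.612). In whole muscle, more cells of a type and more RNA per cell cannot be told apart.

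Endothelial markers lay lower in FLExDUX4 controls than in WT runners, with 15 of 18 below 0 and a median of -0.35. Against WT controls their median was 0.43 in FLExDUX4 controls and 0.74 in WT runners. Kdr, the main VEGF receptor, was at 37.3, 26.2 and 36.4 CPM against 91.2, 33.7, 49.3 and 55.4 CPM (-0.78 ± 0.25), and Eng at 4.12, 2.99 and 6.69 CPM against 9.3, 10.1, 13.8 and 12.6 CPM (-1.27 ± 0.37). The summed level of 19 endothelial markers was 471 to 558.8 CPM against 558.5 to 669.8 CPM. Haemoglobin and other red cell genes lay the same way, with 5 of 5 below 0 and 4 of them without overlap (3.82% of all genes were lower without overlap). Their summed level was 671.5 to 990.7 CPM against 1135 to 1840 CPM. Against WT controls their median was 0.42 in FLExDUX4 controls and 1.12 in WT runners. The part of the red cell genes in the endothelial difference was not tested. Haemoglobin copies are nearly identical, so how reads were split between them is uncertain. Macrophage markers overlapped, at a summed 87.9 to 173.1 CPM against 105.0 to 208.7 CPM. Satellite cell and regeneration genes split 6 and 6.

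Calcium handling and calcineurin genes had 24 of 30 above 0 (median 0.16), where 48.4% of all genes were. Of the 30, 6 were higher without overlap (background 3.09%). Jph2, which ties the sarcoplasmic reticulum to the transverse tubules, was at 152, 148 and 170 CPM against 92.4, 119, 135 and 105 CPM (0.48 ± 0.15, adjusted p = 0.404). Camk2a, a calcium-dependent kinase, was at 293, 269 and 277 CPM against 166, 210, 259 and 179 CPM (0.46 ± 0.16). Growth control and atrophy genes had 16 of 19 above 0 (median 0.23), and Fbxo31, a ubiquitin ligase subunit, was at 77.1, 79.8 and 85.3 CPM against 57, 62.1, 62.9 and 67.1 CPM. Immediate early genes had 15 of 18 above 0 (median 0.28), but the median was -0.27 without FLExDUX4 control 2, whose mean level of the list stood 0.82 above WT controls while FLExDUX4 controls 1 and 3 stood at -0.43 and -0.66.

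Many programmes had medians near that of all genes. They lay within 0.1 of 0 for regulators of mitochondrial biogenesis (13 of 24 above 0), autophagy (12 of 21), proteasome subunits (18 of 31), the unfolded protein response (8 of 16), the dystrophin complex (12 of 18), fibrillar collagens and matrix (11 of 21), antioxidant genes (11 of 24), lactate and glucose handling (7 of 12) and myoglobin, haem and iron genes (6 of 12). The same held for cytosolic ribosomal proteins (9 of 38 above 0), smooth muscle and pericyte markers (6 of 12), Schwann cell markers (1 of 7) and skeletal muscle markers (6 of 10). Single members could still differ. Of 24 antioxidant genes, 5 were lower and 1 higher at an unadjusted p under 0.05 (background 4.12% and 3.16%). Without overlap, 4 were lower and 0 higher (background 3.82% and 3.09%). Ldhb, of the lactate list, was at 27.2, 55.6 and 44.1 CPM against 185, 102, 39.2 and 163 CPM (-1.53 ± 0.67). Within the matrix list, Timp3, a protease inhibitor, was at 236, 203 and 341 CPM against 119, 184, 196 and 140 CPM (0.71 ± 0.22, adjusted p = 0.520). Col4a1, of basement membrane, was at 43.4, 51.1 and 54.3 CPM against 88.1, 107, 52.4 and 54 CPM (-0.60 ± 0.21). These 2 matrix genes lay on opposite sides, Timp3 without overlap and Col4a1 with it.

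Other lists with a median further from 0 were lipid droplet genes (-0.37, 9 of 13 below 0), hypoxia and angiogenic genes (-0.29, 9 of 13), interferon response genes (-0.36, 11 of 15), p53 targets (-0.15, 8 of 14) and branched-chain amino acid breakdown (-0.13, 12 of 18). Fibroblast progenitor markers had a median of -0.18 (9 of 13 below 0), neuromuscular junction genes of -0.12 (7 of 13) and adipocyte markers of 0.24 (4 of 10). Macrophage markers had a median of -0.25 (11 of 16 below 0), and the 3 tested T, B and neutrophil markers were all below 0, with Cd3e, Cd8a and Cd4 at 0 counts in both groups. Plin3, a lipid droplet coat, was at 20.6, 17.9 and 25.3 CPM against 36.4, 34.1, 24 and 48.7 CPM (-0.74 ± 0.26). Among adipocyte markers Fabp4, which capillaries also express, was at 79.6, 100 and 133 CPM against 179, 140, 133 and 167 CPM, and Car3 at 2512, 1510 and 2239 CPM against 1053, 1766, 1566 and 1021 CPM. None of the members of these lists passed adjustment in edgeR. Over the 19 alternatives the median changed sign for branched-chain amino acid breakdown and for fibroblast progenitor, neuromuscular junction, adipocyte and macrophage genes. In that order the medians spanned -0.203 to 0.0123, -0.315 to 0.027, -0.272 to 0.0422, -0.305 to 0.442 and -0.544 to 0.0777.

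Genes reported to respond to DUX4 in mouse muscle gave little to compare. Only 2 of 7 could be tested. Sord differed by -0.02 (interval -0.40 to 0.35) and Ilvbl by -0.08 (interval -0.88 to 0.73). Serpinb6c had 5 counts in FLExDUX4 control 3, 0 in the other controls and 0 in all WT runners. Trim36 had 0 counts in FLExDUX4 controls and 11 in WT runners, all in runner 2. Serpinb6c also had 11 counts in FLExDUX4 runners and 0 in WT controls. Slc15a2 had 1, 7 and 4 counts in FLExDUX4 controls and 6, 2, 9 and 13 in WT runners, too few for the test. Slc34a2 and Wfdc3 had 0 in both groups, which allows up to 0.2 CPM over the FLExDUX4 controls and 0.14 CPM over the WT runners, counting error only.

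The trained WT profile itself can be read from the 55 genes (0.496% of those tested) called between WT runners and WT controls, 44 higher (0.397%) and 11 lower (0.0992%). They were chosen for low values in these WT controls and high values in these WT runners, or the reverse, so another group tends to lie between the 2 by that choice alone. The same choice tends to widen the gap from these WT runners, so the intervals against them are not a test. The counts that follow are a description, and neither a partial likeness to training nor a shortfall from it can be read from them. Of the 44, the FLExDUX4 control mean lay past the WT control mean in 44 and short of the WT runner mean in 43. The median difference was 0.52 in FLExDUX4 controls and 1.04 in WT runners, both against WT controls. The 95% interval against WT runners lay wholly below 0 for 27 of the 44. The exception was Pim3, a kinase, at 39.2, 71.6 and 33.5 CPM in FLExDUX4 controls, 27.5, 53.5, 45.3 and 34.9 CPM in WT runners and 24.6, 18.1 and 15.7 CPM in WT controls. Of the 11 lower genes, the FLExDUX4 control mean lay between the 2 WT means in 11, and the interval lay wholly above 0 for 8.

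Levels of single members of this set are given here as a description, under the same limit. The genes that follow were chosen after their values were seen, so how near they lie to either WT group is not a result. Dach2, a transcription cofactor, was at 4.12, 7.48 and 10 CPM in FLExDUX4 controls, 12.1, 7.28, 4.06 and 8.49 CPM in WT runners and 0.841, 1.73 and 2.41 CPM in WT controls. Pdlim1, a Z-disc and actin scaffold, was at 13.7, 16 and 11.6 CPM, 23.6, 14.6, 13 and 21.4 CPM, and 3.58, 2.38 and 6.92 CPM in the same order. Both genes overlapped between FLExDUX4 controls and WT runners, and both lay above every WT control. Rflnb was at 14.8, 20.7 and 14.3 CPM in FLExDUX4 controls, 44.5, 33.4, 30.1 and 25.1 CPM in WT runners and 16.8, 14.5 and 10.2 CPM in WT controls. Palld, an actin-binding scaffold, was at 74.1, 83.8 and 80.3 CPM, 54, 46.2, 59.7 and 48 CPM, and 98.4, 73.2 and 105 CPM. For these 2 genes the FLExDUX4 controls overlapped WT controls and not WT runners.

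**Figure D5:**
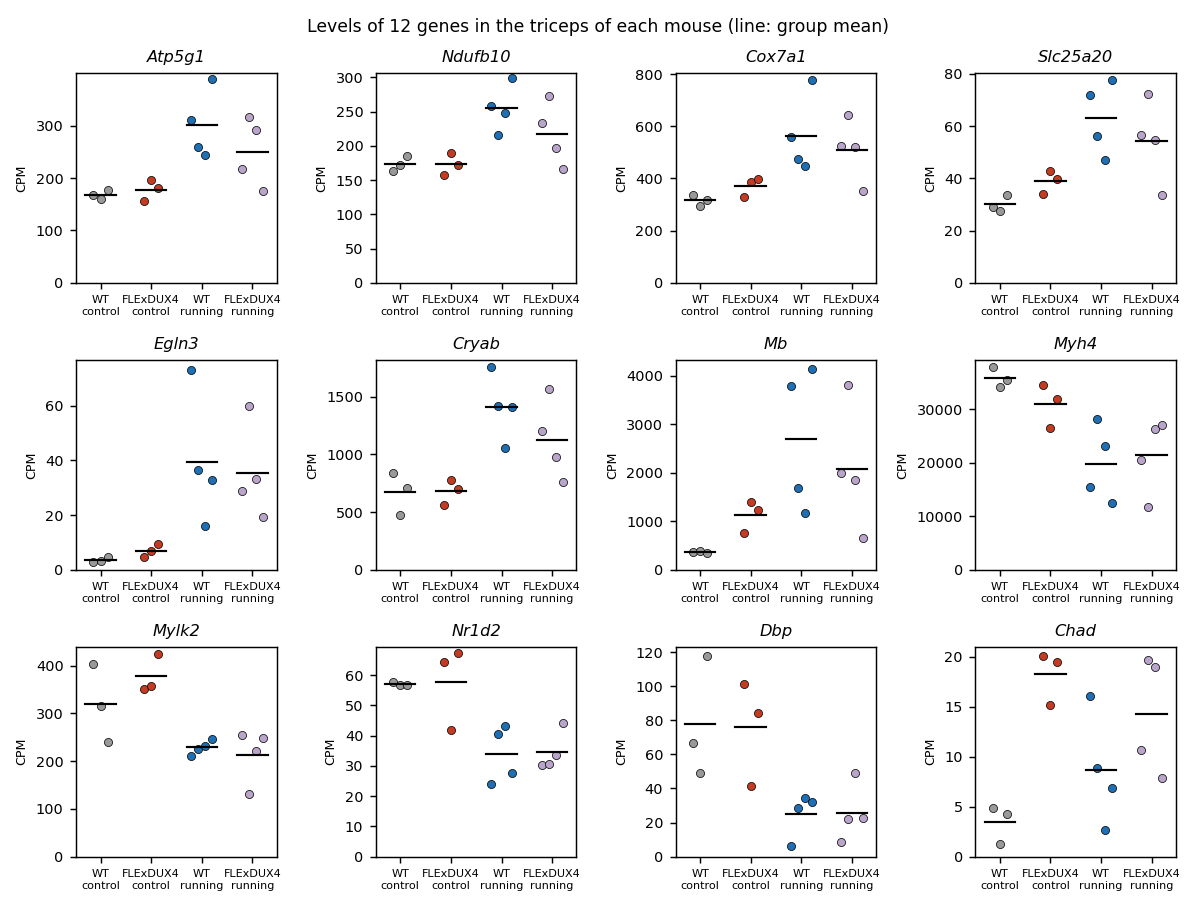
CPM of 12 genes in each mouse (points) of the 4 groups, with the group mean as a line; each axis starts at 0. FLExDUX4 controls lie at the WT control level for Atp5g1, Ndufb10 and Cryab, and above it for Mb, where they span 762 to 1387 CPM, and for Chad.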

How the data were processed

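The authors deposited raw counts per gene and mouse, with log2 fold changes and p-values of their own comparisons in the same table. Tools in the submitters' processing notes are STAR 2.5.3a, featureCounts 1.6.2 (Subread), cutadapt 1.16, FastQC 0.11.7 and DESeq2, and the builds are GRCh38 and GRCm38. Annotation release, strand setting and treatment of multiply aligned reads: not given in the sources used here. Group sums of counts, deposited by the authors, equalled the sums over mice in all 52649 rows. The 99 spike-in rows were set aside, which left 52550 genes. Coordinates are from GENCODE M21 on GRCm38, where 96.5% of starts equalled the deposited ones.

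Counts were fitted with edgeR 4.0.16 in R 4.3.3: TMM factors, filterByExpr with a minimum count of 10 (11088 genes), and 1 robust quasi-likelihood fit over 14 libraries with 1 mean per group. P-values were adjusted over every tested gene by Benjamini-Hochberg, with calls made under 0.05. Per-mouse measures had 2-sided exact permutation tests. Replicates were separate mice, and no batch is given in the labels. The fit was tested on simulated data with 200 changed genes. Their changes were larger than most differences described here, and their spread between mice was smaller. That check does not measure how well differences of the size seen here are found.

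The 42 gene lists, the members and the tests were chosen with earlier results of these data known. Genes were named by rule: the called genes with the largest differences or, with none called, the 5 smallest p, the 2 smallest p of each list, and 12 fixed genes with the DUX4-responsive list. This gave 95 genes; 31 more were chosen after their values were seen and are marked where they appear. Alternatives were DESeq2 1.42.0, limma-voom (limma 3.58.1), other library sizes, filters and thresholds, 1 surrogate variable (sva 3.50.0), only the 2 groups, and mice left out. Of the named genes, 106 of 126 had a RefSeq promoter window.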

Additional observations from a re-analysis of the deposited data

Results flagged for a closer look

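Among 130 sets of 4 WT runner values, for the named genes and the per-mouse measures, 6 had 1 mouse far from the other 3 by Dixon's ratio of gap to range at the 95% level; chance gives this in about 1 of 20 sets. Fh1 was at 201.6 CPM in runner 4, with the others at 147.2 to 154.7. Ier3, an immediate early gene, was at 2.131 CPM in runner 2, with the others at 5.343 to 5.887. Ulk1, an autophagy kinase, was at 24.77 CPM in runner 3, with the others at 17.87 to 18.6. Ly6a, a progenitor marker, was at 43.86 CPM in runner 2, with the others at 57.19 to 58.4. Rgs5, a pericyte marker, was at 183.5 CPM in runner 3, with the others at 226.5 to 232.3. B2m, of antigen presentation, was at 161.9 CPM in runner 1, with the others at 244 to 249.9. None of these 6 genes passed the test between FLExDUX4 controls and WT runners.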

How the results depend on the processing

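No gene was called under RLE, upper quartile or spike-in library sizes, limma-voom, a filter of 1 CPM in 3 libraries, only the 2 groups, an adjusted p under 0.10, 1 surrogate variable, or without mitochondrial genes and Gm42418. DESeq2 and edgeR without robust estimates each called 1, Egln3 (adjusted p of 5.43e-05 and 0.0324). Without the low-count filter 47 were called; the cause was not tested. Leaving out 1 mouse gave 0 to 4 calls: Socs3 without FLExDUX4 control 1 (1 call), and Nrep, Got1, Slc25a34 and Egln3 without WT runner 3. Without FLExDUX4 control 1 and WT runner 2 together, 1 was called, Socs3 (2.92, adjusted p = 0.00907). Socs3, a cytokine feedback gene, was chosen after its values were seen, as was Got1; it was at 1.37, 9.97 and 36.1 CPM in FLExDUX4 controls and 2.77, 4.26, 2.64 and 3.72 CPM in WT runners.

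Among the 126 named genes, signs turned in 9, each with a 95% interval that spans 0. Under limma-voom the log2 differences became 0.0255 for Ilvbl, 1.07 for Myh7, 0.176 for Cd68, 0.00748 for Dach2 and 0.117 for Ucp3. With 1 surrogate variable Ucp3 became 0.0339. With the 2 mice left out together they became 0.0165 for Sord, 0.0659 for Cd68, 0.0982 for Dach2, 0.306 for Nfil3 and 0.625 for Ucp3. With 1 mouse left out the differences spanned -0.391 to 0.225 for Cd68, -0.452 to 0.149 for Dach2, -0.275 to 0.152 for Ilvbl, -1.63 to 0.684 for Myh7, -0.157 to 0.462 for Pim3, -0.00912 to 0.300 for Ppargc1a, -0.128 to 0.0771 for Sord and -0.278 to 0.398 for Ucp3. The spike-in share differed by -0.0382 to 0.139 percentage points, and the share of the 10 most abundant genes by -3.44 to 1.05. No paired analysis was possible because replicate numbers follow the order of the records and each mouse has its own tag.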
